A study of Mus musculus with 24 samples.

Results

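The calcitonin receptor family was examined in the hypothalamus of hypertensive and normotensive mice through 5 genes: the receptor genes Calcr and Calcrl and the genes of their accessory proteins, Ramp1, Ramp2 and Ramp3. They were chosen by name, as the genes with a probe set that carries their symbol alone, and were 5 of 19937 genes measured in this way. Calca, the gene of calcitonin and of calcitonin gene-related peptide (CGRP), was the sixth on the list and is not analysed here. The difference in Calcr between the strains at 6 weeks was known when the genes were chosen, so it is described below without a test. Expression was measured on 24 Affymetrix Mouse Gene 1.0 ST arrays, 1 for each of 24 male mice, and each of the 4 groups held 6 mice. BPH/2J is a hypertensive inbred strain and BPN/3J is the normotensive strain set against it, which the study's design text names BPN/2J at one place. Mice of each strain were taken at 6 and at 26 weeks of age, under standard housing with no other treatment, at the daily peak of blood pressure, and no samples were pooled. Because the whole hypothalamus was removed, every value is an average over all cells and all nuclei of the dissected block.

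Calcr and Calcrl encode class B G protein-coupled receptors that signal mainly through Gs and cyclic AMP. A receptor activity-modifying protein (RAMP) at the receptor's side sets which peptide it binds. Calcr alone is the calcitonin receptor and with a RAMP an amylin receptor, while Calcrl is the CGRP receptor with RAMP1 and an adrenomedullin receptor with RAMP2 or RAMP3. In the brain amylin and calcitonin act on feeding through Calcr, and in blood vessels CGRP and adrenomedullin are strong dilators.

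Promoters of the 2 genes that the results turn on, Calcr and Ramp3, are given with that of Calcrl, the sister receptor whose level hardly moved. Each line holds the 250 bases before a RefSeq transcription start, 5′ to 3′ on the gene's strand, from a table on build GRCm38.p6. Calcr lies on the minus strand at chr6:3763624-3763873, Calcrl on the minus strand at chr2:84425267-84425516 and Ramp3 on the plus strand at chr11:6658283-6658532. Capitals mark GGGCGG, the GC box read by Sp1-type factors, TGACG, the core of the cyclic AMP response element, and CTTTGA, the core read by LEF/TCF factors, each on either strand. The table holds 2 starts for Calcr, and the window of the first is shown.
Calcr: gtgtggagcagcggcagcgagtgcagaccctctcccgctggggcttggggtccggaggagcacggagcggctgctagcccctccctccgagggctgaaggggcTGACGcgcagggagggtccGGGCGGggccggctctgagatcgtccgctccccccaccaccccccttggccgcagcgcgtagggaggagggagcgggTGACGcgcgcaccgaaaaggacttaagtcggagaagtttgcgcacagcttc
Calcrl: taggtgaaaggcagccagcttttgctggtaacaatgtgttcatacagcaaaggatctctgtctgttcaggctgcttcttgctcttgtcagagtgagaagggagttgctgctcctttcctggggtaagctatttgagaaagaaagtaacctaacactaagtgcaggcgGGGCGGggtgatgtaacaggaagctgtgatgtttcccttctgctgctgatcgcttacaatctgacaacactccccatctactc
Ramp3: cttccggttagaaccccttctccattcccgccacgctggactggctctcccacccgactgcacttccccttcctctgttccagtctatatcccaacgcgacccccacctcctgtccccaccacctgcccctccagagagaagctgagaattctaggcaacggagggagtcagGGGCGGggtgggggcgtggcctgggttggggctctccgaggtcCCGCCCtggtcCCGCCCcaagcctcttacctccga
The Calcr window held 1 GC box and 2 TGACG cores at 70.8% GC, and the Ramp3 window held 3 GC boxes and no TGACG core at 65.2% GC. The window of the second Calcr start, at chr6:3764714-3764963, differed, with no GC box and 1 TGACG core at 46.0% GC. The Calcrl window held 1 GC box at 48.4% GC, against a median of 52.4% over all promoters of the table. Over 32851 promoters of this length, 32.7% held a GC box, 17.8% a TGACG core and 13.8% CTTTGA, and none of the 3 printed windows held the last. Such matches describe the letters and are not measured binding sites.

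All values below are log2 intensities, so a difference of 1 is a doubling, and levels are set against each other only within a gene. The 5 genes stood above the median of the 11799 probe sets without a gene name on every array, a median that ran from 4.60 to 5.25. Median values of whole arrays were close, from 5.89 to 6.09. Of 19 measured hypothalamus markers 18 were above the same unnamed median on all 24 arrays, the exception being Vip, so markers of the labelled tissue were present. All 15 thalamus markers and all 7 striatum markers stood above it too, so this check does not separate the hypothalamus from its surroundings. The mean of the markers of the thalamus, the region above it, ran from 7.42 to 9.12 in 6-week BPH/2J mice and from 9.05 to 9.48 in 6-week BPN/3J mice. BPH/2J replicate 2 had the 9.12 and lay inside the BPN/3J range, while the other 5 mice of its group ran up to 8.46.

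**Figure D1:**
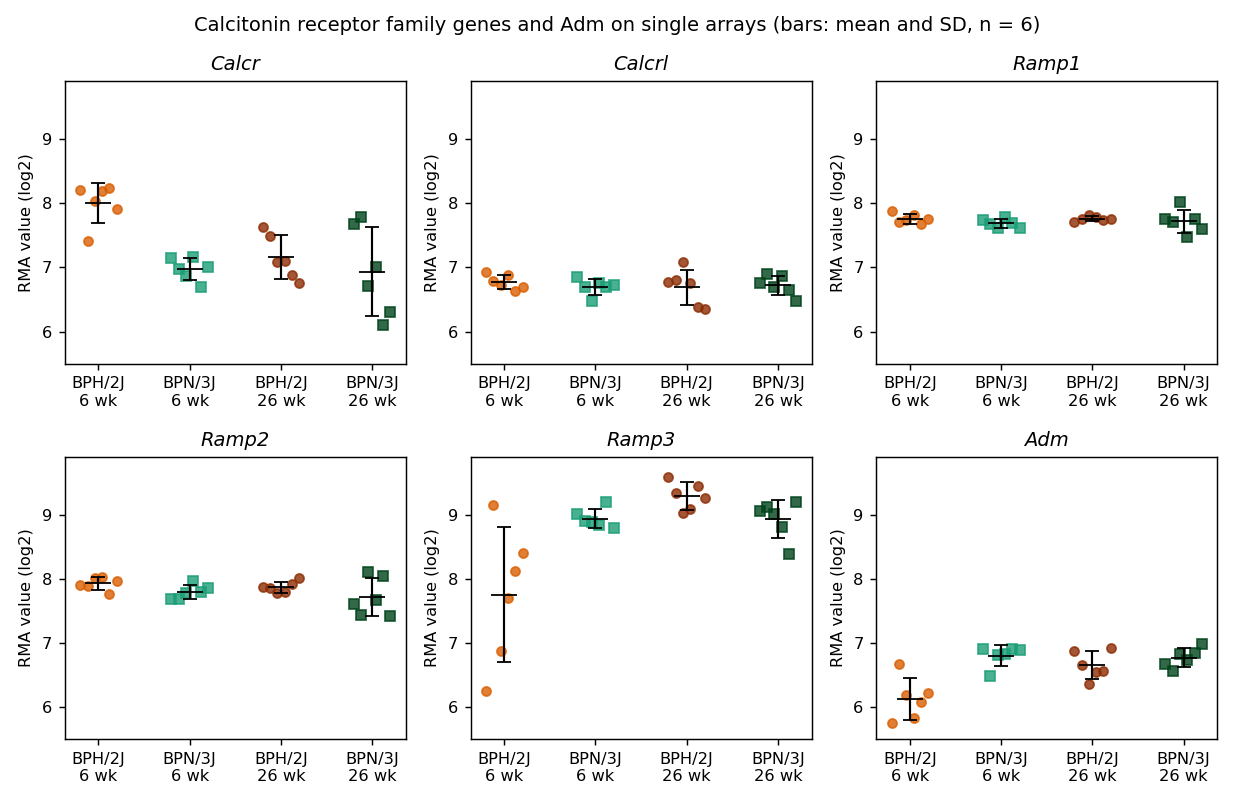
Log2 RMA values of the 5 measured genes and of the adrenomedullin gene Adm on 24 arrays, by group along the x axis (points: single mice, bars: mean and SD, n = 6). Calcr stands apart in 6-week BPH/2J mice, where all 6 points lie above the BPN/3J points of that age, and Ramp3 spreads from 6.25 to 9.15 in that group alone of the 4.

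Calcr was highest in young BPH/2J mice. The 6 values of 6-week BPH/2J mice were 8.20, 7.41, 8.03, 8.19, 8.23 and 7.91, with a mean of 7.99 ± 0.31 (SD, n = 6). In 6-week BPN/3J mice they were 7.15, 6.97, 6.87, 7.16, 6.69 and 7.01, with a mean of 6.98 ± 0.18. The groups did not overlap, and even the lowest BPH/2J mouse, replicate 2, lay above the highest BPN/3J mouse. The difference was 1.02 ± 0.22 (SE, 95% interval 0.56 to 1.47), or 2.02-fold, a description only, and 5.44% of all genes had no overlap between the strains at this age. In these bulk samples fewer cells of a type and less RNA per cell cannot be told apart.

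At 26 weeks the strain difference in Calcr was no longer seen beyond the spread. BPH/2J mice ran from 6.75 through a median of 7.10 to 7.63, and BPN/3J mice from 6.11 through 6.86 to 7.79, so that the BPN/3J group held both the lowest and the highest value. The difference was 0.22 ± 0.22 (interval -0.23 to 0.68), which did not pass limma's test over all genes (adjusted p = 0.779). Without BPN/3J replicate 5 it was 0.06 and without BPN/3J replicate 2 it was 0.40, neither of them called.

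Between 6 and 26 weeks Calcr fell in BPH/2J mice by 0.84 ± 0.22 (limma adjusted p = 0.0113), to 0.560 of its 6-week level. The 26-week values reached 7.63 and the 6-week values came down to 7.41, so the ages overlapped. In BPN/3J mice the change with age was -0.04 ± 0.22 (adjusted p = 0.919). The strain difference was smaller at 26 than at 6 weeks by 0.79 ± 0.31, but this interaction missed the threshold over all genes (unadjusted p = 0.0178, limma adjusted p = 0.313). Both the change with age in BPH/2J and the interaction use the 6-week arrays on which Calcr was noticed, so neither is independent of that observation. The order of the group means was 6-week BPH/2J, 26-week BPH/2J, 6-week BPN/3J and 26-week BPN/3J, and the last 3 overlapped one another.

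Calcrl, the CGRP and adrenomedullin receptor, lay between 6.35 and 7.08 on all 24 arrays. Its means were 6.77 ± 0.11 in BPH/2J and 6.70 ± 0.13 in BPN/3J at 6 weeks, and 6.69 ± 0.27 and 6.72 ± 0.15 at 26 weeks (SD, n = 6). The strain difference was 0.07 ± 0.10 at 6 weeks (interval -0.13 to 0.28, limma adjusted p = 0.800) and -0.03 ± 0.10 at 26 weeks (interval -0.23 to 0.17, adjusted p = 0.955). These intervals leave room for at most 0.28 log2 units in either direction between the strains. No order of the 4 groups exceeded their spread, and the changes with age were -0.08 ± 0.10 in BPH/2J and 0.02 ± 0.10 in BPN/3J.

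Ramp3 was lower in young BPH/2J mice and varied more among them than in any other group. The 6 values of 6-week BPH/2J mice were 6.25, 9.15, 6.88, 7.70, 8.12 and 8.40, a span of 7.44-fold between replicates 1 and 2. In 6-week BPN/3J mice the values were 9.01, 8.90, 8.89, 8.84, 9.19 and 8.79. All BPH/2J mice but replicate 2 lay below every BPN/3J mouse, and replicate 2 lay within their range. The means were 7.75 ± 1.05 and 8.94 ± 0.15 (SD, n = 6), a difference of -1.19 ± 0.29 (SE, interval -1.78 to -0.59), or 0.439-fold, which passed limma's test (adjusted p = 0.00979). This SE draws on the spread of all 4 groups, of which 6-week BPH/2J had by far the largest. With only the 6-week groups in the fit the difference was -1.19 ± 0.36 (limma adjusted p = 0.0434).

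Of the 4 members whose 6-week difference was not the ground for choosing them, Ramp3 was the 1 called, where 7.42% of all genes were called at 6 weeks and 4.42% were called lower. The SD of Ramp3 in 6-week BPH/2J mice, 1.05, compared with a median of 0.14 over all genes in that group. Without BPH/2J replicate 2 the difference was -1.47 (adjusted p = 0.000202) and without replicate 1 of the same group it was -0.89, and the call was kept in each of 24 fits that left out 1 array. Over these fits the adjusted p ran up to 0.0373.

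The thalamus markers moved with Ramp3. At 6 weeks all 15 of them were called lower in BPH/2J, where 4.42% of all genes were. Their median difference was -1.03 against 0.01 over all genes, and Tnnt1 (-1.39 ± 0.14), Rora (-1.13 ± 0.17) and Plekhg1 (-1.62 ± 0.26) had the smallest p. The marker lists were chosen with earlier results of these data known, so tests on them are not independent of those results. The list mean was 8.14 ± 0.62 in BPH/2J and 9.21 ± 0.14 in BPN/3J (SD, n = 6), lower by 1.07 ± 0.26 on the log2 scale (two-sided exact permutation p = 0.00433, 0.0303 adjusted over 56 list comparisons). With that mean as a covariate, the strain difference in Ramp3 turned to 0.36 ± 0.18 and was not called (adjusted p = 0.667). With the hypothalamus mean as a covariate (added once the data had been examined) it was -0.98 ± 0.40 (adjusted p = 0.342). The part of the thalamus content of the samples in the Ramp3 difference was not tested.

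At 26 weeks Ramp3 was at 9.29 ± 0.21 in BPH/2J and 8.93 ± 0.29 in BPN/3J (SD, n = 6). BPH/2J mice ran from 9.02 through 9.29 to 9.58 and BPN/3J mice from 8.39 through 9.04 to 9.19, so the groups overlapped. The difference was 0.36 ± 0.29 (interval -0.24 to 0.96, limma adjusted p = 0.698). This SE draws on the spread of all 4 groups, among them 6-week BPH/2J with its SD of 1.05. With only the 26-week groups in the fit the difference was 0.36 ± 0.13 (limma adjusted p = 0.355). With the thalamus mean as a covariate it was 0.36 ± 0.12 (limma adjusted p = 0.101). BPH/2J was higher in 6 of 6 same-numbered pairs, by 0.01 to 1.06, and with the number as a block the adjusted p was 0.656. None of the 5 members was called by limma at 26 weeks, where 2.67% of all genes were called. Before adjustment none of them was below 0.05, where 2488 of 19937 genes were.

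Ramp3 rose with age in BPH/2J mice by 1.54 ± 0.29 (limma adjusted p = 0.00103), or 2.91-fold. With only the 2 BPH/2J groups in the fit the SE was 0.36 (limma adjusted p = 0.0131). The ages overlapped through replicate 2 of the 6-week group, at 9.15 against a lowest 26-week value of 9.02. In BPN/3J mice the change was -0.01 ± 0.29 (interval -0.60 to 0.59, adjusted p = 0.989). Of the 4 members other than Calcr, Ramp3 was the 1 called with age in BPH/2J, where 16.9% of all genes were called (8.23% higher and 8.64% lower). The call of Calcr uses the 6-week arrays on which it was noticed and is not counted. None of 5 was called in BPN/3J, against 12.3% of all genes, or had an unadjusted p below 0.05, against 5834 of 19937 genes. The 6-week BPH/2J arrays serve the strain and the age comparison alike, so these 2 calls on Ramp3 are not separate evidence. Thalamus markers rose with age in BPH/2J in 13 of 15 cases, with a mean 1.04 ± 0.26 higher (exact permutation p = 0.00649, adjusted p = 0.0404). In the same comparison the astrocyte mean fell by 0.18 ± 0.04 and the microglia mean rose by 0.13 ± 0.03 (exact permutation p = 0.00433 and adjusted p = 0.0303 for each). With age in BPN/3J the astrocyte mean fell as well, by 0.11 ± 0.04 (exact permutation p = 0.00866, adjusted p = 0.0441), and the microglia mean changed by 0.02 ± 0.05. Their part in the age changes of Ramp3 and Calcr was not tested. With the thalamus mean as a covariate the Ramp3 change was 0.03 ± 0.17 and the Calcr change -0.74 ± 0.34, and neither was called (adjusted p = 0.967 and 0.440).

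The interaction of Ramp3, 1.55 ± 0.41, was the largest among the members and missed the threshold (unadjusted p = 0.000856, limma adjusted p = 0.0969). None of the 5 members and only 0.0301% of all genes were called for interaction by limma. Calcr and Ramp3 were the 2 members below 0.05 before adjustment, as were 2160 of 19937 genes. Without 6-week BPH/2J replicate 2 the Ramp3 interaction was 1.83 (limma adjusted p = 0.00359). With array weights, which count less the arrays that lie far from their group, it was 1.77 (limma adjusted p = 0.0146) and that of Calcr -0.97 (limma adjusted p = 0.0304). The Calcr interaction uses the 6-week arrays on which Calcr was noticed, so it is not independent of that observation. With the thalamus mean as a covariate the Ramp3 interaction was 0.00 ± 0.21 (adjusted p = 0.998). In the order of group means for Ramp3, 6-week BPH/2J came last, and the other 3 groups overlapped one another.

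Ramp1 and Ramp2 stayed within narrow ranges. Ramp1, the partner that makes Calcrl a CGRP receptor, ran from 7.48 to 8.01 over 24 arrays, with means of 7.75 ± 0.08 and 7.69 ± 0.07 at 6 weeks and 7.76 ± 0.04 and 7.72 ± 0.18 at 26 weeks in BPH/2J and BPN/3J. Its strain difference was 0.07 ± 0.07 at 6 weeks (interval -0.07 to 0.20, limma adjusted p = 0.703) and 0.04 ± 0.07 at 26 weeks (interval -0.10 to 0.18, adjusted p = 0.899). Ramp2, the adrenomedullin partner found in vessel walls, ran from 7.42 to 8.11, with means of 7.93 ± 0.10 and 7.80 ± 0.10 at 6 weeks and 7.87 ± 0.09 and 7.71 ± 0.30 at 26 weeks. It differed by 0.13 ± 0.10 at 6 weeks (interval -0.07 to 0.33, adjusted p = 0.558) and 0.16 ± 0.10 at 26 weeks (interval -0.04 to 0.35, adjusted p = 0.548). For neither gene did the 4 group means have an order beyond their spread. Changes with age lay between -0.08 and 0.03 for both genes in both strains, and none was called.

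**Figure D2:**
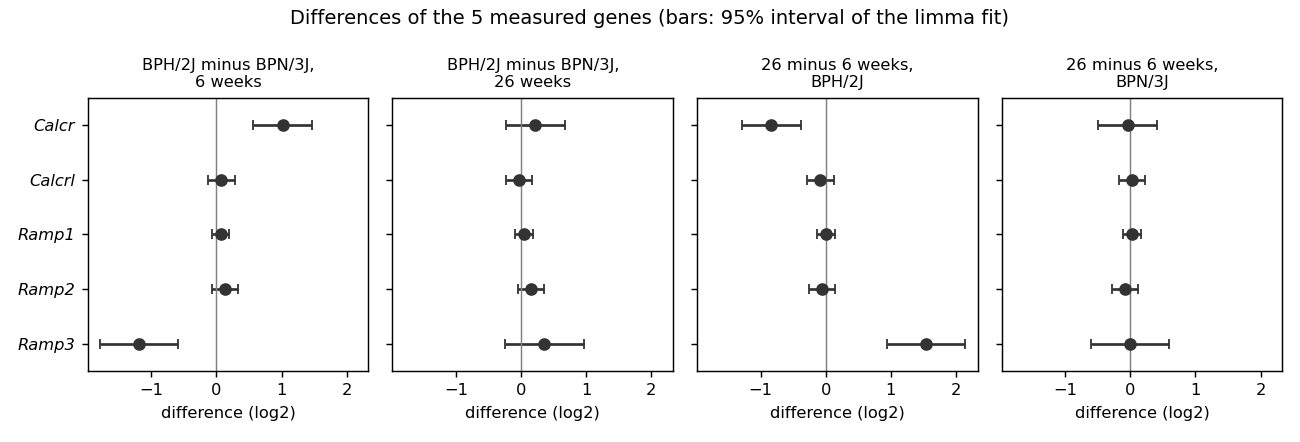
Differences of the 5 measured genes on the log2 scale (x axis) in 4 comparisons, with the 95% interval of the limma fit over 24 arrays. Intervals of Calcrl, Ramp1 and Ramp2 include 0 in every panel, and those of Calcr and Ramp3 exclude it at 6 weeks and with age in BPH/2J, in opposite directions. For Calcr both use the 6-week arrays on which it was noticed, so its intervals there are a description.

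The ligands of these receptors come from Calca, Calcb, Iapp, Adm and Adm2, and Crcp encodes a component that couples the CGRP receptor to its signalling. Adm, the adrenomedullin gene, was lower in 6-week BPH/2J mice, where the values were 5.75, 6.68, 6.19, 5.84, 6.09 and 6.22. In 6-week BPN/3J mice they were 6.90, 6.49, 6.81, 6.83, 6.91 and 6.89. The groups overlapped through BPH/2J replicate 2, again the mouse nearest to the other strain, and through BPN/3J replicate 2, the lowest of its group. The difference was -0.68 ± 0.12 (interval -0.93 to -0.42, limma adjusted p = 0.000674), or 0.626-fold.

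Adm rose with age in BPH/2J by 0.53 ± 0.12 (limma adjusted p = 0.00458) and stood at 6.66 ± 0.21 and 6.77 ± 0.15 (SD, n = 6) in BPH/2J and BPN/3J at 26 weeks. There the strain difference was -0.11 ± 0.12 (adjusted p = 0.802), and in BPN/3J the change with age was -0.04 ± 0.12 (adjusted p = 0.875). Its interaction of 0.56 ± 0.17 was not called (adjusted p = 0.158). It was called without 6-week BPH/2J replicate 2 (0.67, adjusted p = 0.0112) and with array weights (0.72, adjusted p = 0.0137). With the thalamus mean as a covariate the 6-week difference of Adm was -0.34 ± 0.17 (adjusted p = 0.667) and with the hypothalamus mean -0.43 ± 0.16 (adjusted p = 0.241). The age change in BPH/2J also lost its call, at 0.20 and 0.34 (adjusted p = 0.683 and 0.0939).

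None of the other 4 genes of this list was called by limma in any comparison of the fit without a replicate block. Before adjustment 1 of them was below 0.05 at 6 weeks, 1 at 26 weeks and 1 with age in BPH/2J. Of all 19937 genes, 3617, 2488 and 6304 were below 0.05 in these comparisons. Crcp was 7.76 ± 0.13 in BPH/2J and 8.03 ± 0.13 in BPN/3J at 6 weeks, a difference of -0.27 ± 0.09 just outside the threshold (limma adjusted p = 0.0580), which was passed in 3 of 24 fits that left out 1 array. With the replicate number as a block it also passed (-0.27 ± 0.08, limma adjusted p = 0.036). Same-numbered arrays of the strains did not deviate together at 6 weeks, however (r from -0.23 to 0.05). Calcb, the gene of the second form of CGRP, differed by -0.13 ± 0.09 at 6 weeks and -0.20 ± 0.09 at 26 weeks (adjusted p = 0.524 and 0.344). Adm2, the intermedin gene, differed by 0.03 ± 0.09 and 0.04 ± 0.09 at these ages (adjusted p = 0.929 and 0.925). Iapp, the amylin gene, lay between 3.23 and 3.67, at or below the median of unnamed probe sets on 24 of 24 arrays, with differences of 0.03 ± 0.07 and 0.05 ± 0.07.

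Hypothalamus markers moved in the direction of Calcr. At 6 weeks 10 of 19 were called higher in BPH/2J and none lower, where 7.42% of all genes were called in either direction. The median difference was 0.70, and Gal (1.56 ± 0.18), Nkx2-1 (0.66 ± 0.10) and Npy (1.21 ± 0.23) had the smallest p. This list too was chosen with earlier results of these data known. The mean of these markers was 8.17 ± 0.28 in BPH/2J and 7.47 ± 0.23 in BPN/3J (SD, n = 6), higher by 0.70 ± 0.15 (two-sided exact permutation p = 0.00433, adjusted p = 0.0303). At 26 weeks it differed by 0.30 ± 0.18 (exact p = 0.136). Within the 6 same-numbered pairs of that age it was higher in BPH/2J in 6 of 6, by 0.05 to 0.65 (exact sign-flip p = 0.0312, the smallest that 6 pairs allow, 0.438 adjusted over 14 list means). With age in BPH/2J it fell by 0.53 ± 0.15 (exact p = 0.00866, adjusted p = 0.0441). With the hypothalamus mean as a covariate (added once the data had been examined) the Calcr difference at 6 weeks was 0.10 ± 0.16 and its age change in BPH/2J -0.14 ± 0.14 (limma adjusted p = 0.519). With the thalamus mean the Calcr difference at 6 weeks was 0.91 ± 0.34. The part of these markers in the Calcr difference was not tested.

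Endothelial markers, which mark the vessels where Calcrl and Ramp2 are known to be expressed, differed little in their mean, with single markers apart. At 6 weeks 2 of 17 were called higher in BPH/2J, Mfsd2a (0.46 ± 0.09) and Slco1a4 (0.52 ± 0.11), and none lower, where 7.42% of all genes were called. The same 2 were called higher at 26 weeks, at 0.44 ± 0.09 and 0.66 ± 0.11 (limma adjusted p = 0.00539 and 0.000298), where 2.67% of all genes were called. With age in BPH/2J 4 of 17 rose, among them Emcn (0.52 ± 0.14), and 3 fell, among them Eng (-0.36 ± 0.09), where 16.9% of all genes were called. The list mean differed by 0.01 ± 0.03 at 6 weeks (exact permutation p = 0.816) and 0.06 ± 0.05 at 26 weeks (exact p = 0.286). Means of 12 mural cell markers differed by 0.08 ± 0.07 and -0.02 ± 0.11 (exact p = 0.284 and 0.857). With the endothelial mean as a covariate Ramp3 stood at -1.17 ± 0.28 and Adm at -0.67 ± 0.12 at 6 weeks, and both calls were kept.

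**Figure D3:**
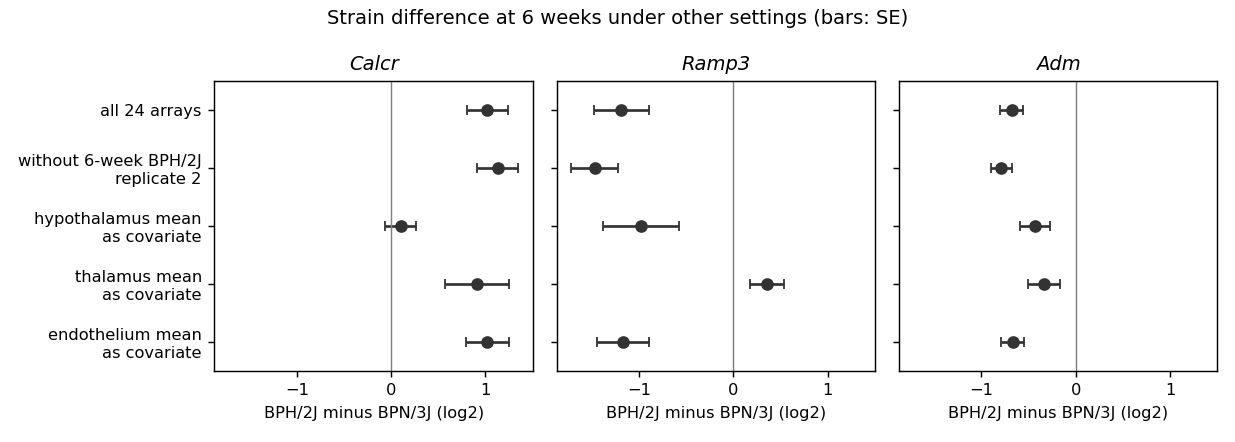
Strain difference at 6 weeks (x axis, log2, BPH/2J minus BPN/3J) of Calcr, Ramp3 and Adm over all 24 arrays, without BPH/2J replicate 2, and with the mean of a marker list as a covariate (bars: SE). Ramp3 moves from -1.19 to 0.36 with the thalamus mean and Calcr from 1.02 to 0.10 with the hypothalamus mean, while the endothelial mean leaves the 3 values within 0.02.

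Other marker lists differed between the same groups. At 6 weeks microglia markers were lower in BPH/2J by a mean of 0.17 ± 0.03 on the log2 scale (exact permutation p = 0.00216, the smallest that 924 splits of 6 against 6 allow, adjusted p = 0.0303). The mean of oligodendrocyte markers was lower by 0.51 ± 0.16 (exact permutation adjusted p = 0.0606), and 5 of 11 were called lower by limma, where 4.42% of all genes were. Striatum and cortex means differed by 0.16 ± 0.06 and -0.15 ± 0.05 (exact permutation adjusted p = 0.0606 and 0.0927). Astrocyte, choroid plexus and pituitary means differed by 0.04, 0.29 and 0.23, with exact p from 0.0779 to 0.268. At 26 weeks no list mean passed, and the thalamus difference was 0.00 ± 0.14. Their part in the differences of the members was not tested.

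Within groups, each mouse's departure from its group mean was compared between the 5 members and 11 marker list means, giving 65 relations over 24 arrays. All values of a mouse come from 1 array and 1 dissected sample, and p-values come from 100000 permutations of arrays within groups. Ramp3 followed the thalamus mean at Pearson's r = 0.93 (permutation p = 2e-05, adjusted p = 0.00065) and Spearman's rho = 0.85 (p = 4e-05, adjusted p = 0.0013). Without 6-week BPH/2J replicates 1 and 2, the mice farthest out in Ramp3, r was 0.85, and it was 0.95 over the 12 mice of 6 weeks and 0.88 over the 12 mice of 26 weeks. Ramp3 ran against the striatum mean, at r = -0.35 (permutation p = 0.00011, adjusted p = 0.00238) and rho = -0.63 (adjusted p = 0.00585), with r = -0.40 without the same 2 mice. Against the astrocyte mean it passed in rank alone, at r = -0.52 (adjusted p = 0.0858) and rho = -0.61 (permutation p = 0.00285, adjusted p = 0.0433), with r = -0.58 at 6 weeks and -0.70 at 26 weeks.

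Calcr followed the hypothalamus mean in the same way, at r = 0.88 (permutation p = 2e-05, adjusted p = 0.00065) and rho = 0.87 (adjusted p = 0.0013). Without 26-week BPN/3J replicates 2 and 5, r was 0.87, and it was 0.87 at 6 weeks and 0.92 at 26 weeks. Calcr did not follow the thalamus mean (r = -0.08, permutation p = 0.727, rho = -0.08), and the value was -0.71 at 6 weeks and 0.45 at 26 weeks. For the 10 pairs of members no Pearson relation passed adjustment. Calcr and Ramp3 gave r = -0.12 (permutation p = 0.552, adjusted p = 0.720, rho = -0.03), with -0.64 at 6 weeks and 0.47 at 26 weeks.

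**Figure D4:**
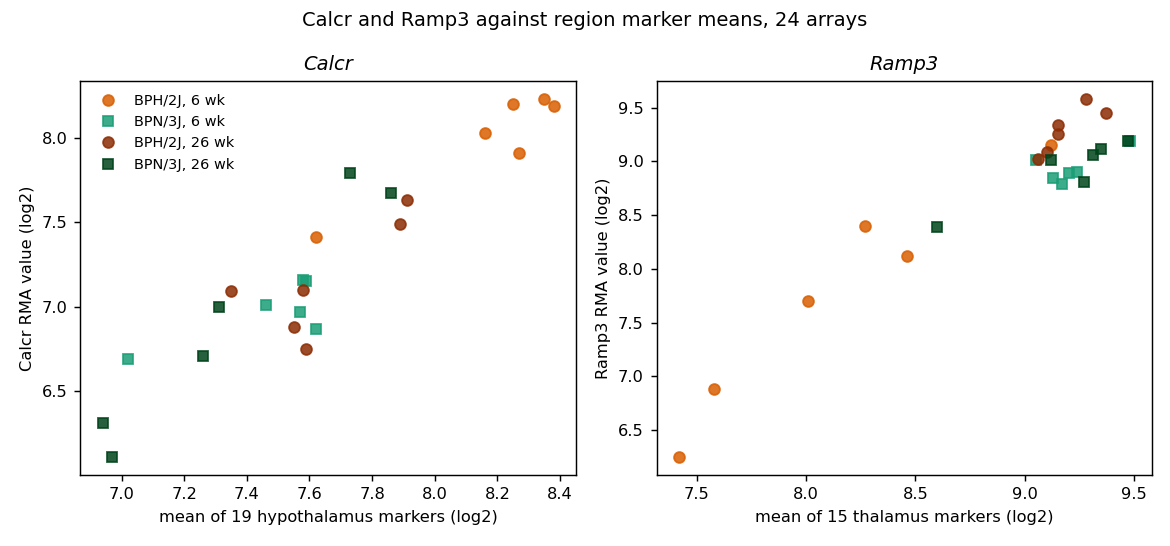
Log2 values of Calcr against the mean of 19 hypothalamus markers and of Ramp3 against the mean of 15 thalamus markers, 1 point per mouse (24 in all), coloured by group. Calcr rises with the hypothalamus mean over the 24 mice. Within 6-week BPN/3J the rise rests on replicate 5, with a Calcr value of 6.69 and a hypothalamus mean of 7.02. In the right panel 5 of the 6-week BPH/2J mice have thalamus means of at most 8.46, below all other mice, while replicate 2 lies among the other groups. The lowest mouse of the rest, 26-week BPN/3J replicate 5, has a thalamus mean of 8.60 and a Ramp3 value of 8.39.

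Calcr and Calcrl passed in rank over the 24 arrays (rho = 0.64, permutation p = 0.00333, adjusted p = 0.0433) but not in value, and the relation did not hold within ages. Pearson's r was 0.30 at 6 weeks, and the 26-week value rested on a split among the arrays of that age. The 26-week arrays fell into 2 sets along their first principal component, which held 41.9% of the variance between mice of a strain and was computed without the members and marker lists. One set had 7 mice, BPH/2J replicates 1 to 4 and BPN/3J replicates 1, 2 and 4, and the other had 5, with BPN/3J replicate 3 close to the border. Once this component was removed, r of Calcr and Calcrl at 26 weeks turned from 0.55 to -0.40, so no relation between them is read from these arrays. For Calcr with the hypothalamus mean and Ramp3 with the thalamus mean it was 0.95 and 0.88.

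Calcr ran from 7.00 to 7.79 in the set of 7 and from 6.11 to 6.88 in the set of 5, without overlap. Calcrl behaved alike, from 6.75 to 7.08 against 6.35 to 6.69. Thus 2 of 5 members did not overlap between the sets, as did 8.52% of all genes. Ramp1, Ramp2 and Ramp3 overlapped, with medians of 7.75 and 7.75, 7.78 and 8.01, and 9.09 and 9.19. The sets cut across the strains, and the wide spread of Calcr in 26-week BPN/3J mice (SD 0.69, larger than that of 99.3% of genes) lay mostly between them. The sets were seen in the data and are in no label, so this is a description.

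By the fixed rule the 3 genes most like each member were found from the same departures over 24 arrays, as a description with no test. For Calcr these were Ppp1r17 (r = 0.94), Sytl4 (0.92) and Gpr101 (0.92). For Ramp3 they were Prkcd (0.96), Ptpn3 (0.94) and Synpo2 (0.94), of which Prkcd and Synpo2 belong to the thalamus list. Prkcd, a protein kinase C gene, was lower in 6-week BPH/2J by 2.01 ± 0.40 on the log2 scale. Calcrl was most like Zdhhc13 (0.91), Cdk17 (0.88) and Trpc4 (0.87), Ramp1 like Tmem200c (0.79), Olfr44 (0.73) and Grpel1 (0.73), and Ramp2 like C1ql1 (0.84), Prss12 (0.82) and 4921504E06Rik (0.82).

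The other class B receptors, relatives of Calcr and Calcrl that bind peptides such as secretin, glucagon and corticotropin-releasing hormone, were also compared between the groups. At 6 weeks 4 of 13 had an unadjusted p below 0.05, as did 3617 of 19937 genes, and 1 was called, where 7.42% of all genes were. It was Vipr2, a receptor of vasoactive intestinal peptide, at -0.80 ± 0.15 (limma adjusted p = 0.00124), and the median difference was 0.08 against 0.01 over all genes. At 26 weeks none of 13 was called by limma, against 2.67% of all genes, and 1 had an unadjusted p below 0.05, as did 2488 of 19937 genes. With age in BPH/2J Vipr2 rose by 0.65 ± 0.15, and Glp1r (-0.51 ± 0.12) and the PACAP receptor gene Adcyap1r1 (-0.47 ± 0.10) fell, so that 3 of 13 were called against 16.9% of all genes. In BPN/3J only Adcyap1r1 of the 13 was called, at -0.32 ± 0.10, against 12.3% of all genes.

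Among genes of Gs and cyclic AMP signalling, the pathway these receptors use, 25 were measured. At 6 weeks 10 of them had an unadjusted p below 0.05, as did 3617 of 19937 genes. By limma 3 were called lower in BPH/2J and none higher, where 4.42% of all genes were called lower. The 3 were the adenylyl cyclases Adcy1 (-1.17 ± 0.18, limma adjusted p = 9.52e-05) and Adcy8 (-0.32 ± 0.07, adjusted p = 0.00370) and the phosphodiesterase Pde4d (-0.28 ± 0.06, adjusted p = 0.00301). The part of the thalamus content of the samples in these differences was not tested. The median difference of the list was -0.04, and its mean was 8.92 ± 0.03 in BPH/2J and 8.99 ± 0.02 in BPN/3J (SD, n = 6), lower by 0.07 ± 0.02 (exact permutation p = 0.00433, adjusted p = 0.0303). None of 25 was called by limma between the strains at 26 weeks, against 2.67% of all genes. At that age 1 had an unadjusted p below 0.05, as did 2488 of 19937 genes. With age 4 rose and 6 fell in BPH/2J, against 16.9% of all genes called, and 4 fell and none rose in BPN/3J, against 12.3%. Both age medians were -0.10, against -0.03 over all genes.

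Adcy1 is also the gene next to Ramp3 in the RefSeq gene order, on the far side from Wap. The neighbours of the members, chosen after values were seen, were Vps50 and Tfpi2 around Calcr, Zswim2 and Tfpi around Calcrl, Rbm44 and Ube2f around Ramp1, and Ezh1 and Vps25 around Ramp2. Adcy1 was the only neighbour called between the strains at either age, where 7.42% of all genes were called at 6 weeks and 2.67% at 26 weeks. No result about the region around Ramp3 is read from this 1 call. Vps50 differed by -0.11 ± 0.12 and Tfpi2 by 0.01 ± 0.10 at 6 weeks (adjusted p = 0.746 and 0.974), on either side of Calcr. The microRNA genes Mir653 and Mir489 within Calcr differed by 0.15 ± 0.09 and -0.09 ± 0.08 (adjusted p = 0.436 and 0.655). Wap, on the other side of Ramp3, differed by 0.04 ± 0.09 (adjusted p = 0.881).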

How the data were processed

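The deposited table holds log2 values made by the authors with RMA, and limma was used, per the submitters' processing notes; the sources used here give neither versions nor the genome build of the array annotation. It covers 34760 probe sets on 24 arrays with no missing value. Platform annotation gave 21640 probe sets 1 symbol, 1321 several and 11799 none, and each member had 1 probe set. Of a gene with several probe sets, that with the highest mean was used.

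The model for the 19937 genes was that of limma 3.58.1 (R 4.3.3), with a mean per group over all 24 arrays (20 residual degrees of freedom). P-values were adjusted by Benjamini-Hochberg over all genes and called below 0.05. They measure the spread between mice, and 6 arrays per group limit the precision. The median SE over all genes was 0.09. The code was tested on simulated data. No 2 arrays of a group were duplicates (mean absolute difference at least 0.12).

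Members and lists were chosen with earlier results of these data known, so tests of list means are not independent of those results. Besides members, the named genes are the other family genes, up to 3 called genes of each pathway list per strain comparison, 3 genes most like each member and up to 3 markers per list, smallest p first. Genes called with age and the neighbours of members were named after their values were seen. No batch or scan information was found. Same-numbered 26-week arrays deviated together between the strains (r from 0.13 to 0.44, all 6 above 0.1), so these numbers pair the samples by that rule, although the labels do not say what a number shares. At 6 weeks r ran from -0.23 to 0.05. Between the ages, same-numbered BPH/2J arrays, which come from different mice, gave r from 0.01 to 0.41, with 4 of 6 above 0.1. Those of BPN/3J gave r from -0.10 to 0.05.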

Additional observations from a re-analysis of the deposited data

Results flagged for a closer look

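Among 6-week BPN/3J mice Adm was far lower in replicate 2 than in the others, at 6.49 against 6.81 to 6.91. Its gap to the nearest mouse was 0.76 of the range of the group, above Dixon's critical value for 6 samples. This was 1 flag among 40 groups of values tested, where chance flags about 1 in 20.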

How the results depend on the processing

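Ramp3 at 6 weeks kept its direction and its call under 12 of 14 alternatives, and Ramp3 with age in BPH/2J under 12 of 13. Calcr with age in BPH/2J, a call that uses the 6-week arrays on which Calcr was noticed, kept both under 11 of 13. The exceptions were marker list means as covariates. With the thalamus mean, at 6 weeks Ramp3 was 0.36, Calcrl -0.03, Ramp1 -0.05, Ramp2 -0.07 and Iapp -0.01, and with age in BPH/2J Calcr was -0.74, Ramp3 0.03, Calcrl 0.01 and Ramp2 0.14. In the same fit the Ramp1 interaction was 0.09, the Ramp3 change in BPN/3J was 0.03, and 0 members were called at 6 weeks or with age in BPH/2J. Genes called fell from 1479 to 160 at 6 weeks and from 3362 to 8 with age in BPH/2J. With the hypothalamus mean, at 6 weeks Calcr was 0.10, Ramp3 -0.98, Calcrl 0.00, Calcb 0.07, Iapp -0.07 and Adm2 -0.08, with 0 members and 255 genes called. There Calcr was -0.17 at 26 weeks, -0.14 with age in BPH/2J (1 member called) and 0.13 with age in BPN/3J, the Ramp2 interaction was -0.02 and Adm2 at 26 weeks was 0.00. The cause of these changes was not tested. The hypothalamus mean, the 26-week component, the block within each age and the test over pairs of list means were alternatives added with the data in view.

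A replicate block, fitted because the numbers pair the 26-week arrays, changed no call of a member. It brought Crcp past the threshold at 6 weeks, an age at which the numbers did not pair the arrays of the strains. Within each age it raised the calls at 6 weeks to 2 of 13 class B receptors and 5 of 25 Gs and cyclic AMP genes. Calcr at 26 weeks stayed at 0.22 ± 0.19, or ± 0.13 with the block within each age. Array weights gave interactions of -0.97 for Calcr and 1.77 for Ramp3 (2 members called, Calcr with the 6-week arrays on which it was noticed). They also gave -0.02 for Ramp1 with age in BPH/2J, 0.20 and 0.03 for Calcr and Ramp3 with age in BPN/3J, and 0.00 and -0.04 for Calcrl and Adm2 at 26 weeks. Uncalled values near 0 also changed sign with array medians subtracted (Calcrl at 26 weeks 0.00, Iapp and Adm2 at 6 weeks -0.01, Ramp1 interaction 0.05, Ramp2 with age in BPH/2J 0.01) and with quantile normalization (Ramp1 with age in BPH/2J -0.01). Under both scalings the median difference of all genes lay within 0.08 of 0. The endothelial mean did the same for Ramp1 (-0.01 at 26 weeks, -0.05 with age in BPH/2J), the Ramp2 interaction (-0.03) and Ramp3 with age in BPN/3J (0.01).

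The number of genes called for interaction, 6 by limma with 2160 at an unadjusted p below 0.05, depended on most choices. It was 0 with all probe sets tested or with the thalamus or hypothalamus mean, 23 without dim genes, 31 with a trended and robust prior, 34 after quantile normalization, 82 after median subtraction, 146 with the endothelial mean, 286 with the 26-week array component as a covariate and 683 with array weights. The replicate block gave 27, or 49 within each age. Array weights also gave 3725 genes at 6 weeks, and 7475 (BPH/2J) and 6416 (BPN/3J) between the ages. The 26-week component gave 2268 at 6 weeks, 929 at 26 weeks, and 5504 (BPH/2J) and 5014 (BPN/3J) between the ages. A fit limited to the compared groups called 2322 genes at 6 weeks and 248 at 26 weeks.

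Leaving out 1 array at a time moved the Ramp3 interaction between 1.25 and 1.83, with 0 to 1 members called, the latter without 6-week BPH/2J replicate 2. Genes called ran from 0 to 496 for interaction, the highest again without that mouse and 31 without 26-week BPN/3J replicate 5, from 2138 (without 26-week BPH/2J replicate 4) to 4838 with age in BPH/2J, and from 1034 (without 26-week BPN/3J replicate 4) to 4230 (without replicate 5) with age in BPN/3J. Small uncalled differences changed sign. At 26 weeks Calcrl ran from -0.11 to 0.04, Ramp1 from -0.01 to 0.10 and Adm2 from -0.02 to 0.09, and at 6 weeks Iapp ran from -0.01 to 0.07 and Adm2 from -0.03 to 0.09. With age in BPN/3J Calcr ran from -0.21 to 0.12, Calcrl from -0.02 to 0.07, Ramp1 from -0.03 to 0.08, Ramp3 from -0.06 to 0.10 and Adm from -0.10 to 0.01. The Ramp1 change with age in BPH/2J ran from -0.02 to 0.03, its interaction from -0.08 to 0.03 and that of Ramp2 from -0.03 to 0.11.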
